A study of Mus musculus with 6 samples.

Results

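Transcripts of 39 enzymes and enzyme subunits of glycolysis, of pyruvate entry into the mitochondrion and of the tricarboxylic acid (TCA) cycle were examined in mature thymic natural killer T (NKT) cells without and with functional DOCK8. The genes were taken by symbol, 17 for glycolysis and lactate formation and 22 for pyruvate entry, the TCA cycle and the reactions beside it. A gene was measured when a probe naming it alone had a detection p under 0.05 on at least 3 of the 6 arrays, and its brightest such probe was used. This left 33 of the 39 genes, among 9060 genes measured in all, with 13 of 17 on the glycolytic side and 20 of 22 on the TCA side. No named probe was analysed here for Hk2, Gpi1 and Eno1. Probes for Aldoc, Pdk2 and Sucla2 were each detected on 1 array at most, so these 6 genes have no value below.

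The cells were CD44+ NK1.1+ NKT cells of the thymus, hybridised to Illumina mouse arrays with 1 array per sample. The DOCK8-deficient group held 3 biological replicates from the strain called Captain Morgan, which the sample titles term a knockout, and the wild type group held 3, both on C57BL/6. DOCK8 is an exchange factor that activates CDC42 and shapes the actin cytoskeleton of lymphocytes. The labels give neither the age of the mice nor whether a replicate pooled animals, so the p-values rest on variation among these samples, part of which may be technical.

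Between 36.4% and 40.7% of 45281 probes were detected per array, and arrays correlated pairwise at 0.976 to 0.986 over the measured genes. DOCK8-deficient replicate 2 had the fewest probes detected and the lowest median intensity (182.9, against 211.6 to 234.8 on the other arrays), and it gave the lowest values of the dim genes Aldh5a1 and Idh1 below. The brightest of 3 detected Dock8 probes averaged a log2 signal of 9.47 ± 0.05 over DOCK8-deficient arrays, against 9.48 ± 0.20 over wild type arrays (SD, n = 3 each), and the other 2 read higher in DOCK8-deficient cells, by 0.37 and 0.41 on the log2 scale, so the transcript does not check the labels. All 7 markers chosen for NKT cells, among them Cd44, Klrb1c (NK1.1) and Zbtb16 (the lineage factor PLZF), were detected and differed by -0.06 to 0.19 on the log2 scale. In RNA from bulk cells, a smaller share of some cell type and less transcript per cell cannot be told apart.

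Glycolysis splits glucose into pyruvate in the cytosol, and lactate dehydrogenase then turns pyruvate to lactate while restoring the NAD+ that the pathway consumes. Alternatively the pyruvate dehydrogenase complex, which PDK kinases switch off, sends pyruvate into the TCA cycle as acetyl-CoA, and the cycle supplies reducing equivalents to the respiratory chain. Activated T cells are known for high glucose use and lactate release, whereas resting lymphocytes rely more on mitochondrial oxidation.

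On the TCA side 1 of the 20 measured genes fell in DOCK8-deficient cells, and on the glycolytic side none of 13 passed the test. The gene that fell, Aldh5a1, encodes succinic semialdehyde dehydrogenase, which is not a cycle enzyme but feeds succinate into the cycle from the breakdown of the neurotransmitter GABA. Its log2 signal was 5.97, 5.14 and 5.31 on the DOCK8-deficient arrays, against 7.35, 7.32 and 7.01 on the wild type arrays. Every DOCK8-deficient value lay below every wild type value, and the probe was detected on 1 of 3 DOCK8-deficient arrays and on all 3 wild type arrays. The wild type arrays alone thus met the detection filter, which favours a lower reading in DOCK8-deficient cells for any gene admitted in this way. The difference was -1.75 ± 0.22 (moderated SE), with a limma adjusted p of 0.0297 over all genes and of 0.0359 with no filter on detection. With the DOCK8-deficient signal mostly at background, its size is not a measured fold change. Of all 9060 genes 0.364% passed, and 0.155% fell. The member list was drawn up with earlier results on these arrays known, so the call is not independent evidence. Among the glycolytic genes limma called 0, and 1 of 13 (Ldha) had an unadjusted p under 0.05, beside 11.3% of all genes. Under each of the 14 other settings tried the glycolytic count was likewise 0.

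A second Aldh5a1 probe, likewise detected on 1 DOCK8-deficient array and 3 wild type arrays and so subject to the same limit, read 4.90, 5.25 and 5.69 on the DOCK8-deficient arrays, against 6.42, 6.39 and 6.80 on the wild type arrays. The groups did not overlap, and the difference was -1.25 ± 0.22, with a limma adjusted p of 0.0935 over all 14559 detected named probes. Over that same set of probes the brighter probe kept its call (adjusted p = 0.0461). The size rests on dim signal: without background correction the log2 difference was -0.54 (adjusted p = 0.0101), and in the authors' log2 table it was -1.10 (adjusted p = 0.00229). The call also depended on which arrays were included. It was lost without DOCK8-deficient replicate 2 (log2 difference -1.59, adjusted p = 0.0743) or 3 (-1.67, 0.111), and without wild type replicate 1 (-1.69, 0.135), 2 (-1.71, 0.0966) or 3 (-1.86, 0.113), and it was kept without DOCK8-deficient replicate 1 (-2.00, 0.0142).

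Markers of double-positive thymocytes, the stage before NKT commitment, were read on the same arrays, although cells selected for CD44 and NK1.1 should hold few of them. Of the 11 listed, 7 were measured and all 7 had a negative difference, with a median of -0.49 over the 7. Cd4 and Cd8b1, which encode the coreceptors that define the stage, differed by -0.05 and -0.07 (unadjusted p = 0.821 and 0.690 by limma), and Cd8a, Rag2 and Ptcra were among those without a value. Dntt, the recombination enzyme terminal transferase, read 5.02, 5.40 and 4.65 on the DOCK8-deficient arrays, against 6.59, 6.81 and 6.74 on the wild type arrays. Dntt passed (limma adjusted p = 0.0276), but its probe was detected on 0 DOCK8-deficient and all 3 wild type arrays. It was thus measured through the wild type group alone. Cd1d1, detected on all 3 arrays of each group, was lower without overlap by 0.77 (unadjusted p = 0.00723, limma adjusted p = 0.219). Themis differed by -0.55 (unadjusted p = 0.0232, limma adjusted p = 0.349), but its probe was detected on 1 DOCK8-deficient and all 3 wild type arrays. In all, 3 of the 7 had an unadjusted p under 0.05, all lower, beside 5.66% of all genes lower at that p. Among these 3, Dntt and Themis met the detection filter through the wild type arrays alone, which favours a lower DOCK8-deficient reading. The count therefore cannot be weighed against the share of all genes. The summed normalized signal of the list was 1927 to 2249 on DOCK8-deficient arrays and 2299 to 2851 on wild type arrays. Bright genes weigh most in this sum, Cd8b1 above all, and the gap was not tested. The part of such cells in the Aldh5a1 signal was not tested.

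**Figure D1:**
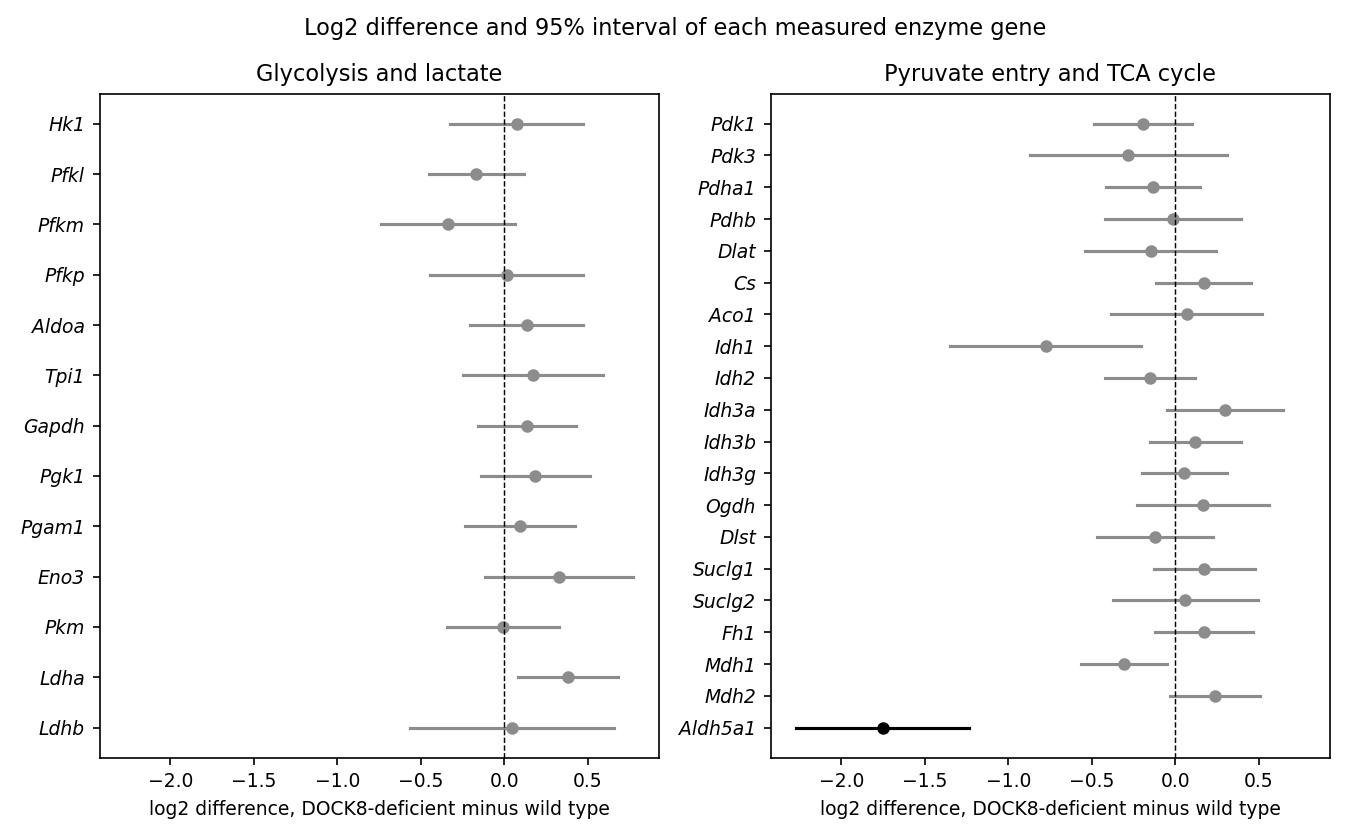
Log2 difference, DOCK8-deficient minus wild type, for the 13 measured genes of glycolysis (left) and the 20 of pyruvate entry and the TCA cycle (right); points are limma estimates and bars their 95% intervals over 3 arrays per group. Aldh5a1, in black, is the gene that passed the adjusted threshold, at -1.75, and the others, in grey, lie between -0.78 and 0.38.

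The 250 bases upstream of the first annotated start are shown for Ldha, Mdh1, Idh1 and Aldh5a1, the 4 members with an unadjusted p under 0.05, so chosen after their values were seen. These are 4 of 33 measured members, a share close to the 11.3% of all genes below that p, with 1 of the 4 higher and 3 lower, beside 5.68% and 5.66% of all genes. Sequences are from RefSeq (GRCm38.p6), 5′ to 3′ on the strand of the gene, at chr7:46845554-46845803 (plus strand), chr11:21571935-21572184 (minus strand), chr1:65186480-65186729 (minus strand) and chr13:24937662-24937911 (minus strand). Capitals mark ACGTG on either strand, a core that hypoxia-inducible factor is known to recognise. MYC family proteins are known to recognise the longer CACGTG.
Ldha: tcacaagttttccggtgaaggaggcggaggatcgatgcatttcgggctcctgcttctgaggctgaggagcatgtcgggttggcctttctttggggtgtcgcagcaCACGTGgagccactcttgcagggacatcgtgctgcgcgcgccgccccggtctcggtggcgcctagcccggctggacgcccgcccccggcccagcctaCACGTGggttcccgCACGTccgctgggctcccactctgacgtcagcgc
Mdh1: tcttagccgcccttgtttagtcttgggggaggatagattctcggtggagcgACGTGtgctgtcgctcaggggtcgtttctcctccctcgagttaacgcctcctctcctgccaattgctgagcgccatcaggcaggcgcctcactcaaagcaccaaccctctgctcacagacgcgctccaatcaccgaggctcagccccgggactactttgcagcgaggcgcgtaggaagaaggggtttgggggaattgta
Idh1: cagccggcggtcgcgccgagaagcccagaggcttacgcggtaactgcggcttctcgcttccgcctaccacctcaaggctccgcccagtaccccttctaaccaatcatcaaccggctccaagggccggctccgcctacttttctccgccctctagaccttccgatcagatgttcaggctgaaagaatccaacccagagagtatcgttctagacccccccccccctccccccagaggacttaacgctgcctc
Aldh5a1: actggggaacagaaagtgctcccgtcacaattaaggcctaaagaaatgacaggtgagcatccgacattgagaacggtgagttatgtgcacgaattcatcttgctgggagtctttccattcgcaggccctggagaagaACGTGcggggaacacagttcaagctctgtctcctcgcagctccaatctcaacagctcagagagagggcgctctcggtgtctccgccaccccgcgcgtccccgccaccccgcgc
The Ldha window holds 3 such stretches, of which 2 are the palindrome CACGTG. The Mdh1 and Aldh5a1 windows hold 1 each and the Idh1 window 0. ACGTG occurs in 4 of 13 measured glycolytic genes and in 6 of 19 TCA-side genes (32 of the 33 measured genes were in the table), against 16.6% of 27025 promoters. GCGTG, not marked above, occurs in 6 of the 13 and in 10 of the 19, against 28.2% of promoters. The 27025 promoters include those of genes not measured here, so these shares cannot be called particular to the 2 pathways. CACGTG, which contains ACGTG, occurs in 2 of the 13 and in 0 of the 19, against 6.05% of promoters. These are matches of letters only, and no binding was measured.

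Among glycolytic enzymes the widest gap was that of Ldha, the lactate dehydrogenase subunit of muscle and of dividing cells. Ldha read 12.95, 13.09 and 13.22 on the log2 scale in DOCK8-deficient cells, against 12.68, 12.81 and 12.64 in wild type cells. The DOCK8-deficient arrays were all above the wild type arrays, by 0.38 ± 0.13 (SE) on average, or 1.30-fold with a 95% interval of 1.06 to 1.60. This did not pass over all genes (unadjusted p = 0.0189, limma adjusted p = 0.324). Over the 14 other settings the Ldha difference stayed between 0.31 and 0.45, with adjusted p from 0.0648 upward. Ldhb, the heart-type subunit, was dim, detected on 2 arrays of each group, and differed by 0.04 with an interval of -0.57 to 0.66.

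Upstream of Ldha, the brightest probes of the steps from aldolase to enolase all had positive differences, none of which passed. Eno3, the muscle form of enolase, read 7.83, 7.83 and 8.46 in DOCK8-deficient cells, against 7.73, 7.59 and 7.81 in wild type cells. The groups did not overlap, but the lowest DOCK8-deficient value and the highest wild type value are nearly equal, and the difference of 0.33 ± 0.19 (adjusted p = 0.583) shrank to 0.12 without DOCK8-deficient replicate 3. The other steps lay closer together, with 0.14 for the aldolase gene Aldoa, 0.17 for triosephosphate isomerase (Tpi1, whose dimmer probes read 0.13 and -0.13), 0.14 for Gapdh, 0.19 for phosphoglycerate kinase (Pgk1) and 0.09 for the mutase Pgam1. Their groups overlapped in each case. Pkm, encoding the pyruvate kinase that ends the pathway, read 11.57, 11.71 and 11.93 in DOCK8-deficient cells, against 11.61, 11.75 and 11.88 in wild type cells, so that the ranges nearly coincide. Its difference was -0.01, with a 95% interval of -0.34 to 0.33.

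The entry steps of glycolysis showed no common direction. Hk1, the hexokinase that traps glucose as glucose 6-phosphate, read 7.14, 7.57 and 6.98 in DOCK8-deficient cells, against 7.08, 7.13 and 7.26 in wild type cells, and the DOCK8-deficient values spread to both sides of the wild type ones. Its difference of 0.07 (interval -0.33 to 0.47) stood beside one of -0.44 on a second probe (adjusted p = 0.772). The phosphofructokinase subunit genes, whose product commits sugar to glycolysis, differed by -0.17 for Pfkl, -0.34 for Pfkm and 0.01 for Pfkp. For Pfkm, the DOCK8-deficient arrays were 8.04 to 8.16 and the wild type arrays 8.08 to 8.70, so that wild type replicate 3 fell within the DOCK8-deficient range.

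Of the 13 glycolytic genes, 10 were higher and 3 lower in DOCK8-deficient cells by their brightest probe. Over both pathways 23 other probes of 17 measured genes were detected, and 12 of the 23 ran opposite to the brightest probe, so counts of direction rest on the probe chosen. By brightest probe, the median difference of the 13 glycolytic genes was 0.09 on the log2 scale, against -0.0049 over all 9060 genes, of which 49% were higher. The groups did not overlap for 2 of the 13, both higher, beside 8.61% of all genes that were higher without overlap. For 8 of the 13 the whole 95% interval lay within a 1.5-fold change either way, and for all 13 within a 2-fold change. The median deviation of the 13 genes from their own means was -0.05, 0.05 and 0.16 on the DOCK8-deficient arrays 1 to 3. On the wild type arrays it was -0.04, -0.06 and 0.03, so these medians overlapped. The summed normalized signal, in which bright genes weigh most, did not overlap. It was 26896 to 31382 on DOCK8-deficient arrays and 24851 to 26448 on wild type arrays, a gap that was not tested.

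**Figure D2:**
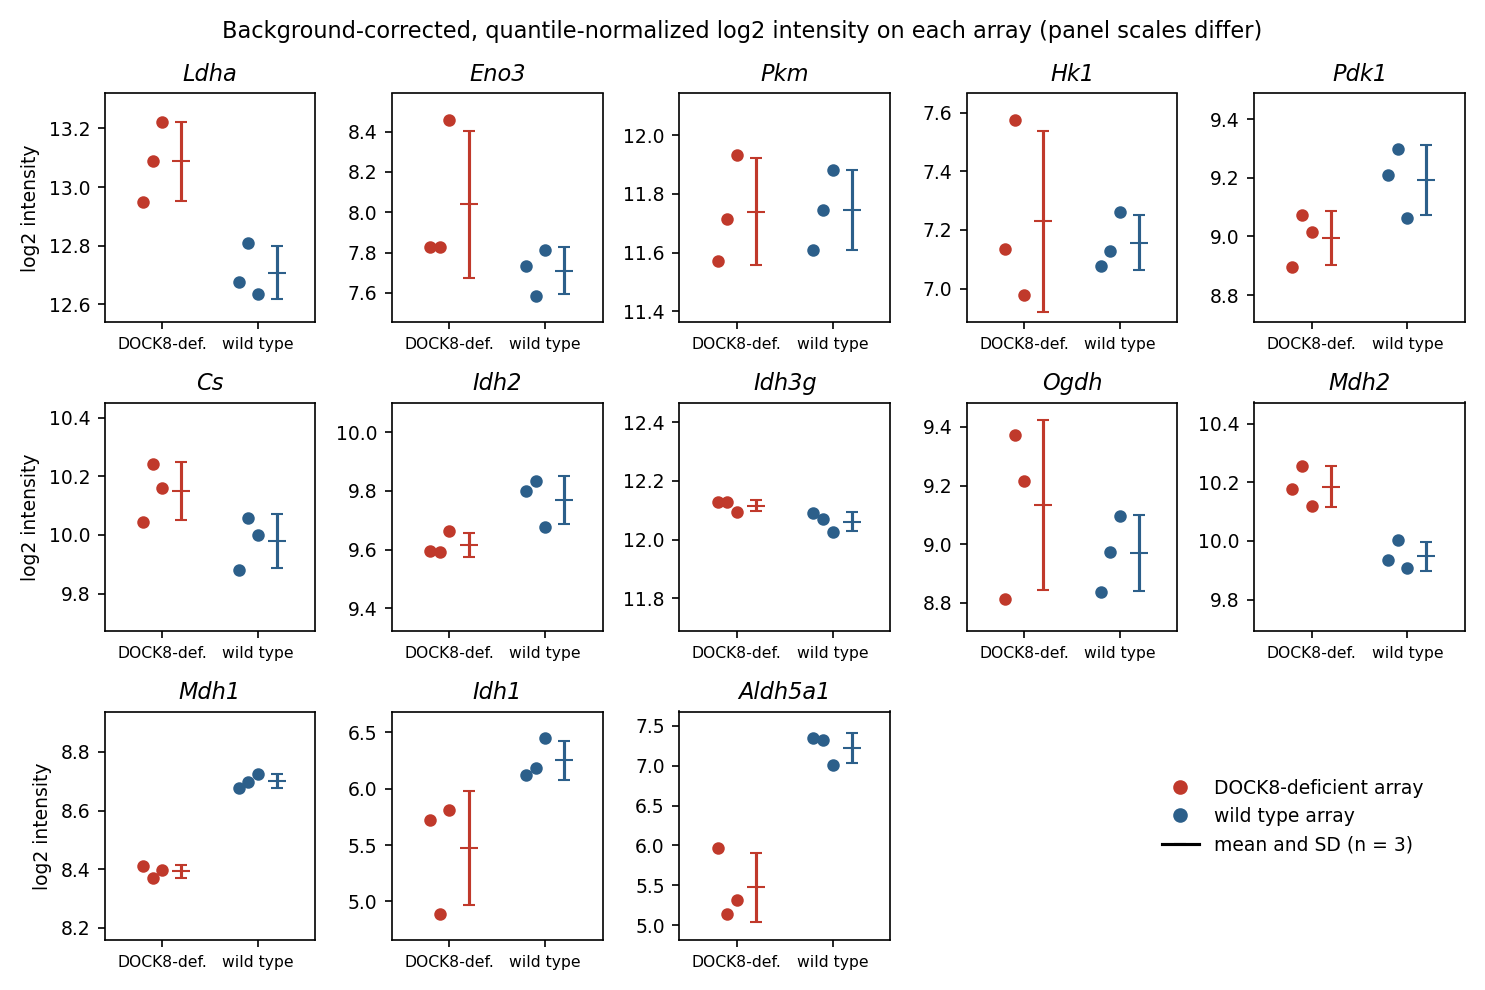
Normalized log2 intensity (vertical axes, each panel with its own scale) of 13 member genes on the 3 DOCK8-deficient arrays (red) and the 3 wild type arrays (blue), with the mean and SD beside them. Ldha, Eno3, Idh3g and Mdh2 are higher without overlap in DOCK8-deficient cells, Idh2, Mdh1, Idh1 and Aldh5a1 lower without overlap, and Pkm, Hk1, Pdk1, Cs and Ogdh overlap.

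Cell cycle transcripts were read in the same samples as Ldha. Of 24 listed cell cycle genes 19 were measured and 18 were higher, beside 49% of all genes, with a median difference of 0.28 on the log2 scale over the 19. None passed (0 by limma), and 7 of the 19 had an unadjusted p under 0.05, all higher, beside 5.68% of all genes that were higher at that p. Their median deviation was 0.08, 0.14 and 0.30 on the DOCK8-deficient arrays 1 to 3 and -0.45, -0.0003 and -0.16 on the wild type arrays. Plk1 was detected on 3 DOCK8-deficient arrays and 1 wild type array, and Top2a and Aurkb on 3 and 2. For these genes the DOCK8-deficient arrays alone met the detection filter, which favours a higher reading there. Of 12 genes listed as myeloid and dendritic markers 6 were measured, with 5 higher (Tyrobp, Fcgr3, Mpeg1, Lyz2 and Ctss) and Csf1r lower. None of the 6 passed, and Tyrobp and Fcgr3 differed most. The summed signals of the 6 genes were 1256 to 1642 on DOCK8-deficient arrays and 870 to 1015 on wild type arrays, a gap that was not tested. The defining markers Itgam, Itgax, Adgre1, Cd14, Cd68 and Cybb were not measured. Whether the higher signal came from myeloid cells or from the NKT cells themselves was not tested. The part of dividing or myeloid cells in the Ldha signal was not tested.

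**Figure D3:**
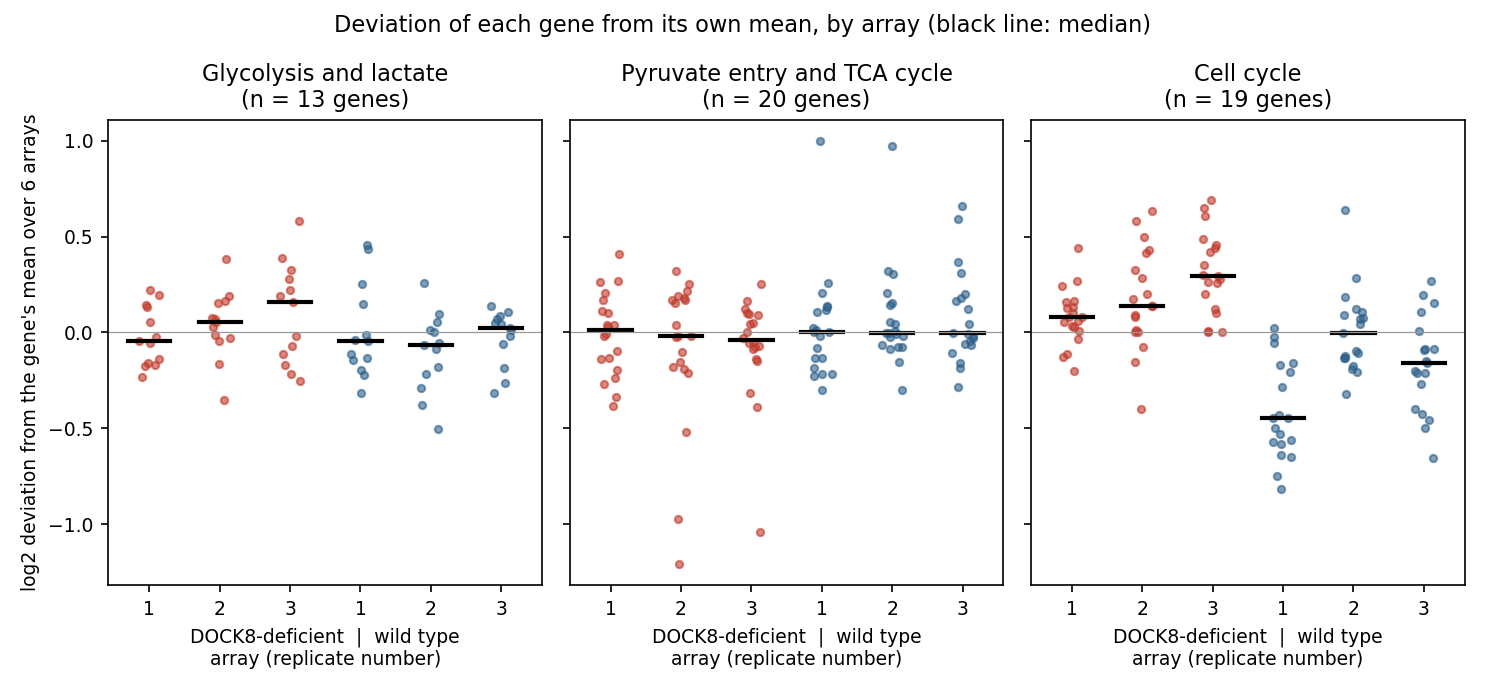
Deviation of each gene from its own mean over the 6 arrays (vertical axis, log2) on the 3 DOCK8-deficient arrays (red) and the 3 wild type arrays (blue), for glycolysis, for pyruvate entry and the TCA cycle, and for cell cycle genes; black lines are medians. The medians of the first 2 panels stay between -0.06 and 0.16, and those of cell cycle genes reach 0.30 on DOCK8-deficient array 3 and -0.45 on wild type array 1.

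At pyruvate entry all 5 measured genes had negative differences, and none passed. Pdk1, a kinase that switches off pyruvate dehydrogenase, read 8.90, 9.07 and 9.02 on the DOCK8-deficient arrays, against 9.21, 9.30 and 9.06 on the wild type arrays. Wild type replicate 3 lay just below the highest DOCK8-deficient array, so the groups overlapped, and the difference was -0.20 ± 0.13 (adjusted p = 0.622). A second, dimmer Pdk1 probe read -0.52 (unadjusted p = 0.0345, adjusted p = 0.450). Its sister kinase gene Pdk3 differed by -0.28 with a wide interval of -0.87 to 0.31. The subunit genes of the complex itself were closer, at -0.14 for Pdha1, -0.01 for Pdhb and -0.15 for Dlat. Pdhb has an interval of -0.42 to 0.40, its other probes read -0.05 and 0.11, and its sign changed between settings. Beyond the members, the third subunit gene Dld differed by 0.26 (adjusted p = 0.661), opposite in sign to the brightest probes of Pdha1, Pdhb and Dlat. The phosphatase genes Pdp1 and Pdp2, which act against the kinases, differed by 0.19 and -0.23 (adjusted p = 0.645 and 0.591).

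Within the cycle proper, 9 of 11 measured mitochondrial enzyme genes read higher on the DOCK8-deficient side. The median difference over the 11 was 0.16, and none passed. With detected probes averaged, Idh3b, Idh3g and Suclg2 among the 9 turned negative. Cs, encoding the citrate synthase that opens the cycle, read 10.05, 10.24 and 10.16 in DOCK8-deficient cells, against 9.88, 10.06 and 10.00 in wild type cells. The groups overlapped by 1 array on each side, and the difference was 0.17 ± 0.12 (adjusted p = 0.668). Mdh2, the mitochondrial malate dehydrogenase that closes the cycle, read 10.18, 10.26 and 10.12 in DOCK8-deficient cells, against 9.93, 10.00 and 9.91 in wild type cells. These groups did not overlap, with a difference of 0.24 ± 0.12 that missed the threshold (unadjusted p = 0.0758, adjusted p = 0.498).

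None of the mitochondrial isocitrate dehydrogenase genes passed. Idh2, the NADP+-dependent mitochondrial enzyme, read 9.59, 9.59 and 9.66 in DOCK8-deficient cells, against 9.80, 9.83 and 9.68 in wild type cells, lower without overlap by 0.15 on the log2 scale (adjusted p = 0.688). The subunit genes of the NAD+-dependent enzyme that drives the cycle differed by 0.30 for Idh3a, 0.12 for Idh3b and 0.05 for Idh3g (adjusted p = 0.517, 0.761 and 0.908). For Idh3g the separation was without overlap but very small, at 12.13, 12.13 and 12.09 on the DOCK8-deficient arrays, against 12.09, 12.07 and 12.03 on the wild type arrays. Second probes of Idh3b and Idh3g read in the opposite direction, at -0.17 and -0.10, and with probes averaged these genes differed by -0.025 and -0.022, whereas the second probe of Idh3a read 0.21.

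Later steps of the cycle showed differences of the same small size. Ogdh, the first subunit of the 2-oxoglutarate dehydrogenase complex, read 8.81, 9.37 and 9.22 in DOCK8-deficient cells, against 8.84, 8.97 and 9.09 in wild type cells, a difference of 0.16 with overlap (adjusted p = 0.783). Dlst, the second subunit of that complex, differed by -0.12, and its 4 other detected probes read from -0.38 to 0.11. The succinyl-CoA ligase genes Suclg1 and Suclg2 differed by 0.17 and 0.06, and the fumarase gene Fh1 by 0.17. A dimmer Suclg1 probe read 0.62 (adjusted p = 0.430) and another -0.09, so its probes differed in size and direction.

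The cytosolic counterparts of cycle enzymes included the gene with the smallest spread within groups. Mdh1, the cytosolic malate dehydrogenase of the malate-aspartate shuttle, read 8.41, 8.37 and 8.40 in DOCK8-deficient cells, against 8.68, 8.70 and 8.73 in wild type cells. Within each group the arrays lay within 0.05 of each other, as the SDs of 0.02 and 0.02 show, and the groups were apart by 0.31. Even so the moderated test, which draws each gene's spread toward that of all genes, gave an SE of 0.11 and an adjusted p of 0.356 (unadjusted p = 0.0244). Over the 14 other settings the difference lay between -0.41 and -0.20 and passed in 0. Mdh1 was thus lower and its mitochondrial counterpart Mdh2 higher on every DOCK8-deficient array than on any wild type array, but the contrast between these genes was not tested.

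Idh1, the cytosolic NADP+-dependent isocitrate dehydrogenase, was dim, with 5.72, 4.89 and 5.81 in DOCK8-deficient cells, against 6.12, 6.18 and 6.45 in wild type cells. It was detected on 2 of 3 DOCK8-deficient arrays and on all wild type arrays, and the groups did not overlap. The difference of -0.78 ± 0.25 did not pass (unadjusted p = 0.0141, adjusted p = 0.279), and it was -0.19 without background correction and -0.49 without DOCK8-deficient replicate 2. Aco1, the cytosolic aconitase that doubles as iron regulatory protein, was detected on 2 arrays of each group and differed by 0.07.

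Counted together, 10 of the 20 TCA-side genes were higher and 10 lower, with a median of 0.02. In 6 of the 20 the groups did not overlap, 2 higher and 4 lower, and over both pathways this held for 8 of 33 genes (24.2%), beside 17.1% of all genes measured. Of all genes 8.61% were higher and 8.5% lower without overlap. For 16 of the 20 genes the whole 95% interval lay within a 1.5-fold change either way, the exceptions being Aldh5a1, Idh1, Pdk3 and Idh3a. The median deviation of the 20 genes lay between -0.04 and 0.01 on the DOCK8-deficient arrays and between -0.0048 and 0.0026 on the wild type arrays. Their summed normalized signal was 23636 to 24192 on DOCK8-deficient arrays and 22613 to 23490 on wild type arrays, without overlap and not tested. The median within-group SD was 0.16 for glycolysis and 0.15 for the TCA side, against 0.19 for all genes, and the median log2 signal was 9.95 and 9.39, against 8.39.

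Other genes of these pathways were read from a list of 65 transporters, isoforms, regulators and partner enzymes, of which 26 were measured. None passed the adjusted threshold (0 by limma), and 2 of the 26 had an unadjusted p under 0.05, both lower, beside 11.3% of all genes in either direction and 5.66% lower. Of the 26, 11 were higher and 15 lower, and the median difference was -0.02. The smallest p was that of Pfkfb2, which makes and removes the phosphofructokinase activator fructose 2,6-bisphosphate. It read 6.39, 6.08 and 5.97 in DOCK8-deficient cells, against 6.84, 6.75 and 6.69 in wild type cells, without overlap, and differed by -0.61 ± 0.15 (unadjusted p = 0.00312, adjusted p = 0.151). Next came Myc, a transcription factor known to drive glycolytic genes, at -0.61 (adjusted p = 0.381), and Egln1, the oxygen-sensing hydroxylase of HIF1A, at -0.66 (adjusted p = 0.459). Sdhb, the iron-sulfur subunit of succinate dehydrogenase, differed by 0.27 (adjusted p = 0.487). The glucose transporter genes Slc2a1 and Slc2a3 differed by -0.15 and -0.02, and Hif1a by 0.12, with overlapping groups.

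**Figure D4:**
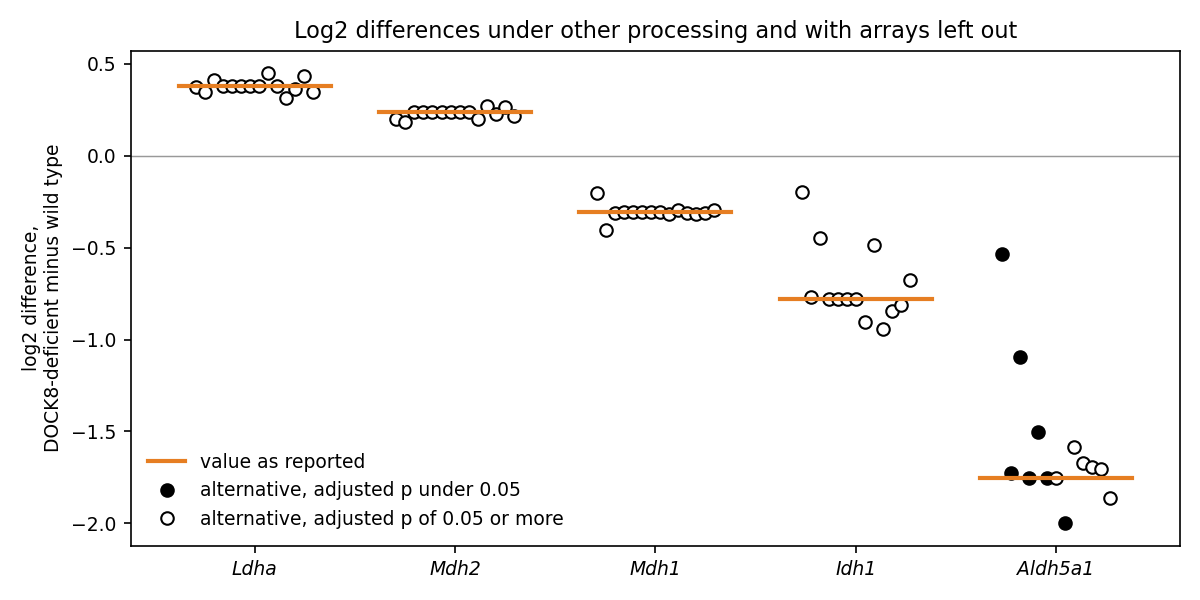
Log2 difference, DOCK8-deficient minus wild type (vertical axis), of 5 genes under the other processing settings and with each array left out in turn (circles, filled where the adjusted p was under 0.05), with the reported value as an orange line. Aldh5a1 passed in 7 of 13 settings and spans -2.00 to -0.54, and the other 4 genes keep their direction and pass in 0.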

How the data were processed

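Gene expression was measured in 3 DOCK8-deficient and 3 wild type NKT cell samples, grouped by sample title. The scanner table that the authors deposited holds a linear intensity for each probe, not background subtracted as far as its values show. A detection p-value stands beside each intensity, per the file headers. The authors' series table, also deposited, holds log2 values, as judged from their range; how they were normalized is not stated.

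Background was modelled and arrays were quantile normalized by neqc (offset 16) in limma 3.58.1 under R 4.3.3. Of 45281 probes, 34885 carried 1 gene symbol, 18 several and 10378 none in the platform annotation. A linear model with empirical Bayes moderation in limma, 2-sided, gave differences as DOCK8-deficient minus wild type over 9060 genes, with Benjamini-Hochberg adjustment and a threshold of 0.05. Errors beside differences are moderated standard errors. The functions were tested on simulated data.

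Members and gene lists were chosen with earlier results of these data known. Per-array values were given for members that passed, did not overlap between groups or had an unadjusted p under 0.05, and for Hk1, Pkm, Ldha, Pdk1, Cs and Ogdh. Of the other pathway genes the 4 of smallest p were named, and Slc2a1, Slc2a3, Hif1a, Dld, Pdp1 and Pdp2 were added after their values were seen. The number of arrays limits precision. Alternatives tried were uncorrected log2 intensities, scaling to the array median, the authors' table, probe filters that were absent or stricter, averaged probes, a trended robust prior, a replicate block and the omission of each array. Slides are not named in the files, so a slide block was not run.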

Additional observations from a re-analysis of the deposited data

How the results depend on the processing

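Of the 33 members, 24 kept their direction under all alternatives and 9 changed sign in at least 1, and 0 members other than Aldh5a1 passed under any of the 14. Aldh5a1 has no value under the stricter filter on dim probes, where the TCA-side count was 0. It was lost with the replicate block (log2 difference -1.75, adjusted p = 0.106), and without 5 of the 6 arrays, over which the difference ran from -2.00 to -1.59. Deviations of same-numbered arrays from their group means correlated at 0.04, -0.15 and -0.27. With so few arrays this cannot show whether the replicate numbers pair the samples, and the labels do not say. With the replicate block the count over all genes was 0 (833 at an unadjusted p under 0.05) and the TCA-side count 0. With arrays left out the TCA-side count ran from 0 to 1 and that over all genes from 2 to 15.

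The count over all genes was 124 without background correction, 62 with median scaling (37.1% of them higher, against 57.6% of 33), 126 in the deposited table, 54 with the stricter filter and 165 with a trended robust prior. The TCA-side median was 0.0016 without background correction, -0.044 with median scaling, 0.054 with probes detected on all 6 arrays, -0.072 when probes were averaged and -0.094 to 0.041 with arrays left out. Signs reversed with median scaling for Hk1 (-0.038), Pfkp (-0.057) and Suclg2 (-0.025), in the deposited table for Pkm (0.025) and Pdhb (0.00017), and with averaged probes for Hk1 (-0.19), Pfkp (-0.017), Pkm (0.046), Pdhb (0.014), Idh3b (-0.025), Idh3g (-0.022) and Suclg2 (-0.21). With arrays left out the difference ran from -0.17 to 0.14 for Pfkp, -0.10 to 0.078 for Pkm, -0.12 to 0.14 for Pdhb, -0.20 to 0.28 for Ldhb, -0.064 to 0.24 for Aco1, -0.055 to 0.27 for Suclg2 and -0.10 to 0.20 for Hk1. Apart from the settings whose construction changes the genes or samples tested, the cause was not tested. Signal near background limits Aldh5a1, Idh1, Aco1 and Ldhb.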
